A study of Mus musculus with 14 samples.

Results

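Of 14 thymic lymphomas from p53 mutant mice, 3 gave a log2 value above 3 at the probe set of Adipoq and 11 gave a value of 3 or below. Adipoq encodes adiponectin, a hormone that fat cells secrete, and its only probe set on the array divided the tumours in this way. The 3 tumours above 3 were HIF1a+/+ tumours 2, 3 and 5. The 11 at or below 3 were 2 HIF1a+/+ tumours (1 and 4), all 4 HIF1aKI/+ tumours (1, 3, 4 and 5) and all 5 HIF1a+/- tumours (1 to 5). Both sides therefore occur in HIF1a+/+ alone, and across the series side and genotype cannot be told apart. The sides were defined by a measured value and are not groups of the study.

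All mice were homozygous for p53R270H, of a C57BL/6-129/SvEvTac mixed strain, and the study compared 3 Hif1a genotypes among them. Mice were kept until respiratory distress, and lymphoma tissue was stored in RNAlater. Total RNA of each tumour was measured on 1 Affymetrix array, as log2 GCRMA values. The labels call the tumours biological replicates, do not say what the KI allele carries, and give no sex, age, array batch or histology, so whether fat was in the tissue is known here only through RNA. Each tumour was bulk tissue, in which fewer cells of a type and less RNA per cell cannot be told apart.

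White adipocytes store triglyceride in a lipid droplet, make and take up fatty acids under the control of PPARγ and C/EBPα, and secrete adipokines such as adiponectin and leptin. Fat borders the thymus in the mediastinum, and its stroma also holds fibroblasts, vessels, macrophages and a mesothelial lining. Lists of genes for these cells and for the thymus were used to describe the tumours on each side.

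Adipoq itself was at 4.00 in HIF1a+/+ tumour 2, 6.57 in tumour 3 and 4.13 in tumour 5. It was between 2.02 and 2.03 in 10 of the other tumours and 2.47 in HIF1aKI/+ tumour 4. The values nearest the threshold were thus 4.00 on the upper side and 2.47 on the lower side. The deposited values have a low mode of probe sets without signal above background, which ends at about 4.41. Of the 3 tumours above 3, only HIF1a+/+ tumour 3 passed that boundary for Adipoq, so by it the Adipoq levels of tumours 2 and 5 are not clear of background. The boundary is a minimum in the density of all values and not a detection limit of this probe set.

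Of 62 adipocyte genes listed, Adipoq and 47 others were measured, and these 47 speak to the same property as the split, so they are described without a test. Car3, the carbonic anhydrase abundant in fat cells, was at 10.79, 11.41 and 8.92 in HIF1a+/+ tumours 2, 3 and 5. In the other 11 tumours Car3 had a lowest value of 2.09, a median of 3.85 and a highest value of 8.44. All 3 tumours lay above all 11, and the difference of the means was 6.03 on the log2 scale. That is the value of the brighter Car3 probe set, since the other one stayed at 2.60 or below in every tumour. Retn, which encodes the adipokine resistin, was at 3.57, 9.47 and 7.19 in the same 3 tumours, against a lowest value of 2.03, a median of 2.04 and a highest value of 4.43 in the 11. For Retn the sides overlapped, because HIF1aKI/+ tumour 4 at 4.43 exceeded HIF1a+/+ tumour 2.

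The markers bear out the names fat-containing and fat-free only in part. HIF1a+/+ tumour 2 was under the boundary of 4.41 for Adipoq at 4.00 and for Retn at 3.57, with Car3 at 10.79. HIF1a+/+ tumour 5 was under it for Adipoq at 4.13. HIF1aKI/+ tumour 4 had the highest values among the 11 for Car3 at 8.44, the fatty acid desaturase Scd1 at 12.30 and Retn at 4.43, the last hardly over the boundary of 4.41. Its Adipoq value of 2.47 is background and is not counted here. HIF1a+/- tumour 3 was at 6.86 for Car3, and Retn was at 2.19 there. The 11 tumours are accordingly called those with Adipoq at 3 or below, not fat-free.

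**Figure D1:**
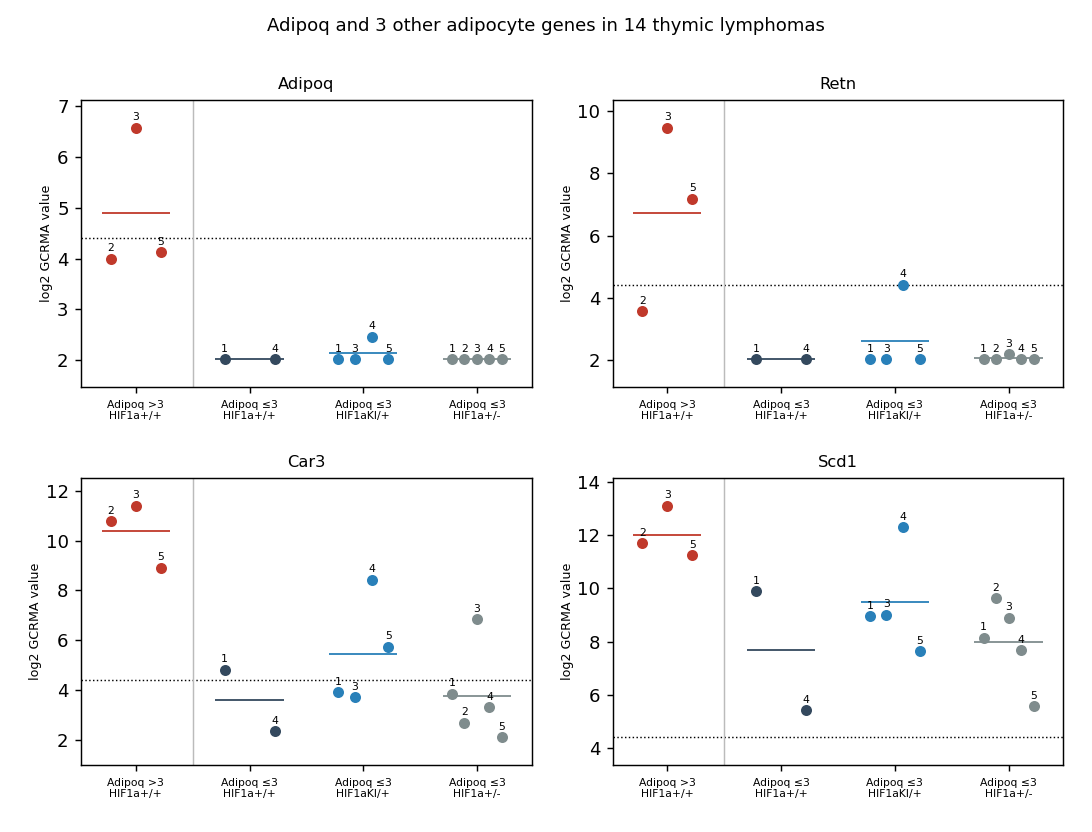
Deposited log2 GCRMA values (y axis) of Adipoq, Retn, Car3 and Scd1 in each of the 14 tumours, with the 3 tumours above an Adipoq value of 3 at the left and the others by genotype (x axis). Points are tumours with their replicate number, horizontal bars are means, and the dotted line is the low-mode boundary at 4.41. HIF1aKI/+ tumour 4 is the highest of the 11 tumours at or below 3 for Car3, Scd1 and Retn, while all 11 are under the dotted line for Adipoq.

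Genes for the synthesis and uptake of fatty acids held the larger differences after Car3 and Retn. Scd1 was at 11.71, 13.11 and 11.26 in the tumours above 3, against 5.44 at the lowest, 8.91 at the median and 12.30 at the highest of the 11, a difference of 3.55 with overlap. Thrsp, a regulator of lipogenesis, was at 7.17, 8.09 and 5.67, against 3.24, 4.86 and 5.61, and here the sides did not overlap. Cd36, a fatty acid carrier, averaged 10.17 ± 0.53 (SD, n = 3) against 9.05 ± 0.96 (SD, n = 11), with the highest value of all, 10.83, in HIF1a+/- tumour 5. Pck1, used in glycerol synthesis, averaged 4.18 ± 0.83 against 2.83 ± 1.10, both under the low-mode boundary of 4.41. The sides overlapped for Pck1, at 3.52, 3.91 and 5.12 against a highest value of 4.86 in the 11. Of the 21 measured genes of this list, 17 had a higher mean in the tumours above 3, and the median difference was 0.28. In 5 of the 21 the mean over all tumours was below the low-mode boundary. Fasn, the fatty acid synthase, averaged 11.12 ± 0.36 against 10.90 ± 0.32, and Acly, which supplies its acetyl-CoA, 13.26 ± 0.10 against 13.22 ± 0.11.

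Among regulators and identity genes, Pparg, the master regulator of adipogenesis, was at 7.17, 6.24 and 7.45, against a lowest value of 4.05, a median of 5.28 and a highest of 6.46. HIF1aKI/+ tumour 4, high for Car3 and Scd1, had the lowest Pparg of all at 4.05. Cav1, the caveolin that coats adipocyte membranes, averaged 9.52 ± 1.0 against 8.27 ± 0.75. Nr1h3, the liver X receptor alpha, was at 5.82 in HIF1a+/+ tumour 5 alone, with 2.13 and 2.12 in tumours 2 and 3 and at most 3.79 elsewhere. Of 13 genes in this list, 10 had a higher mean, but 6 of the 13 had a mean over all tumours below the low-mode boundary.

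Of 7 lipid droplet genes, 6 had a higher mean in the tumours above 3, with a median difference of 0.2. Mgll, which cleaves monoglycerides, averaged 8.76 ± 0.50 against 7.84 ± 0.66, and G0s2, an inhibitor of lipolysis, 6.91 ± 1.43 against 6.22 ± 1.56. The droplet coat gene Plin2 averaged 12.35 ± 0.19 against 12.30 ± 0.42. Of the 6 secreted proteins measured besides Adipoq, Rarres2, the chemerin gene, averaged 10.80 ± 0.57 against 9.91 ± 0.88, while Nampt and Angptl4 had means of 8.12 and 9.90 against 8.23 and 9.97.

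Several genes that define fat cells gave no signal in any tumour. Lipe, the hormone-sensitive lipase, Rbp4, the retinol carrier, Slc2a4, the insulin-responsive glucose transporter, and Adig, adipogenin, were among 11 of the 47 genes that stayed under 3 in all 14 tumours. Lep, Cfd, Plin1, Plin4 and Cidec were not analysed here. Fabp4, a lipid chaperone that macrophages and endothelium also express, was at 12.90, 13.01 and 13.79, against 11.17 at the lowest and 13.02 at the highest of the 11, so it was high in every tumour.

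Over all 47 genes, 37 had a higher and 10 a lower mean in the tumours above 3, with a median difference of 0.25. That count includes 15 genes whose mean over all tumours was below the low-mode boundary, where 28.5% of all genes lay. It also includes the 11 that stayed under 3 in every tumour. Those 11 were at background level, so the direction of their means is not read. Over the 10253 genes tested, 50.2% had a higher and 49.8% a lower mean, and the median difference was 0.00. The mean of the 47 genes was 7.18, 7.46 and 7.24 in HIF1a+/+ tumours 2, 3 and 5, against 6.45 to 6.84 in the 11. The 3 highest means were thus in the 3 tumours above the Adipoq threshold. These genes speak to the same property, so that is a description and no separate evidence. Of the 47, 2 did not overlap between the sides, Car3 and Thrsp, both higher, where 0.429% of all genes tested were higher without overlap; since these genes speak to the same property as the split, nothing is read from that count. Within HIF1a+/+, 13 of the 47 were higher in all 3 tumours than in tumours 1 and 4 and 0 were lower in all 3, where 7.27% and 6.68% of all genes lay above or below in this way. Nothing is read from these counts either, for the same reason. Nr1h3 is among the 13 although tumours 2 and 3, at 2.13 and 2.12, and tumours 1 and 4, at 2.1 each, were all at background level. HIF1a+/+ tumours 1 and 4 were at 2.04 each for Retn. For Car3 they were at 4.82 and 2.35, so tumour 1 was over the low-mode boundary and above the median of the 11.

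Among all genes but Adipoq, few differed between the sides past the test. The adipocyte genes were among those tested, and nothing is read from their p-values. The limma test of the 3 tumours against the 11, adjusted by Benjamini-Hochberg over 10253 genes, called 7 genes higher (0.0683% of those tested) and 0 lower (0.0%) at an adjusted p of 0.05. Before adjustment, 374 genes (3.65%) were higher with a p under 0.05 and 206 (2.01%) were lower. The 7 genes were Sfrp2, Vegfd, Adamts5, Nnmt, Cyp4b1, Lrg1 and Cyp2e1. The sides were divided by Adipoq on the same arrays, so the p-values measure how far genes followed that division and do not compare groups that were set up independently.

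Sfrp2, a secreted protein that binds Wnt ligands, was at 7.33, 6.44 and 5.17 in HIF1a+/+ tumours 2, 3 and 5, against a lowest value of 2.05, a median of 2.34 and a highest value of 3.14 in the 11. All 3 passed the low-mode boundary and none of the 11 did. The means differed by 3.88 on the log2 scale (SE 0.36, limma adjusted p = 0.000917).

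Vegfd, a growth factor of lymphatic vessels, was at 6.41, 4.99 and 4.56, against 2.19 at the lowest, 2.29 at the median and 3.56 at the highest, and its difference was 2.91 (SE 0.34, limma adjusted p = 0.00705). Its 3 probe sets differed in size: the other 2 gave 2.47 and 0.74, and the last, with no value over 4.19, did not pass when probe sets were tested singly (limma adjusted p = 0.964).

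Adamts5, an extracellular protease of proteoglycans, was at 5.96, 3.58 and 5.93, against values of 2.07 to 2.53 in the 11, with a difference of 2.88 (SE 0.36, limma adjusted p = 0.0084). A dimmer probe set of the gene gave 1.17 and did not pass. Nnmt, which methylates nicotinamide, was at 5.55, 3.70 and 6.53, against 2.01 to 2.61, with a difference of 2.99 (SE 0.38, limma adjusted p = 0.0084). HIF1a+/+ tumour 3, with the most Adipoq, had the lowest value of the 3 tumours for both genes, under the boundary.

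Both cytochrome P450 genes were near 2 in all 11 tumours. Cyp2e1, the ethanol-inducible P450, was at 7.80, 3.34 and 5.63, against 2.0 to 2.06 (difference 3.58, SE 0.58, limma adjusted p = 0.0499). Cyp4b1, a monooxygenase, was at 2.82, 5.09 and 5.02, against 2.03 to 2.37 (difference 2.21, SE 0.34, limma adjusted p = 0.0396). HIF1a+/+ tumour 3 was lowest for Cyp2e1 and tumour 2 for Cyp4b1, so the order of the 3 tumours was not shared by these genes. Lrg1, a secreted glycoprotein of the acute phase, was at 5.78, 6.47 and 6.10, against 3.92 to 5.28 (difference 1.6, SE 0.25, limma adjusted p = 0.0396).

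In all 7 genes the 3 tumours lay above all 11, HIF1a+/+ tumours 1 and 4 included, as they did in 0.429% of all genes tested. The 7 were picked by the same comparison, so nothing is read from that count. For 6 of the 7 genes, all but Lrg1, every one of the 11 tumours was under the low-mode boundary. These differences are thus measured against background and their sizes are uncertain. With genotype as a term in the model, or with HIF1a+/+ tumours alone, 0 of the 7 passed (0.0% of genes higher in either fit, 0.0% and 0.0195% lower), while the differences were of like size: 3.59 for Sfrp2, 2.82 for Vegfd, 2.86 for Adamts5, 3.05 for Nnmt, 2.26 for Cyp4b1, 1.43 for Lrg1 and 3.58 for Cyp2e1. Both of these fits compare the 3 tumours with HIF1a+/+ tumours 1 and 4. When each tumour was left out in turn, Sfrp2, Vegfd, Adamts5 and Nnmt passed in all 14 fits, against 1 fit for Cyp4b1, 3 for Lrg1 and 2 for Cyp2e1. With HIF1aKI/+ tumour 4 moved to the upper side, by a threshold of 2.4, 0 genes passed. That tumour was at 2.72 for Sfrp2, 2.33 for Nnmt and 2.06 for Cyp2e1, under the low-mode boundary for each.

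**Figure D2:**
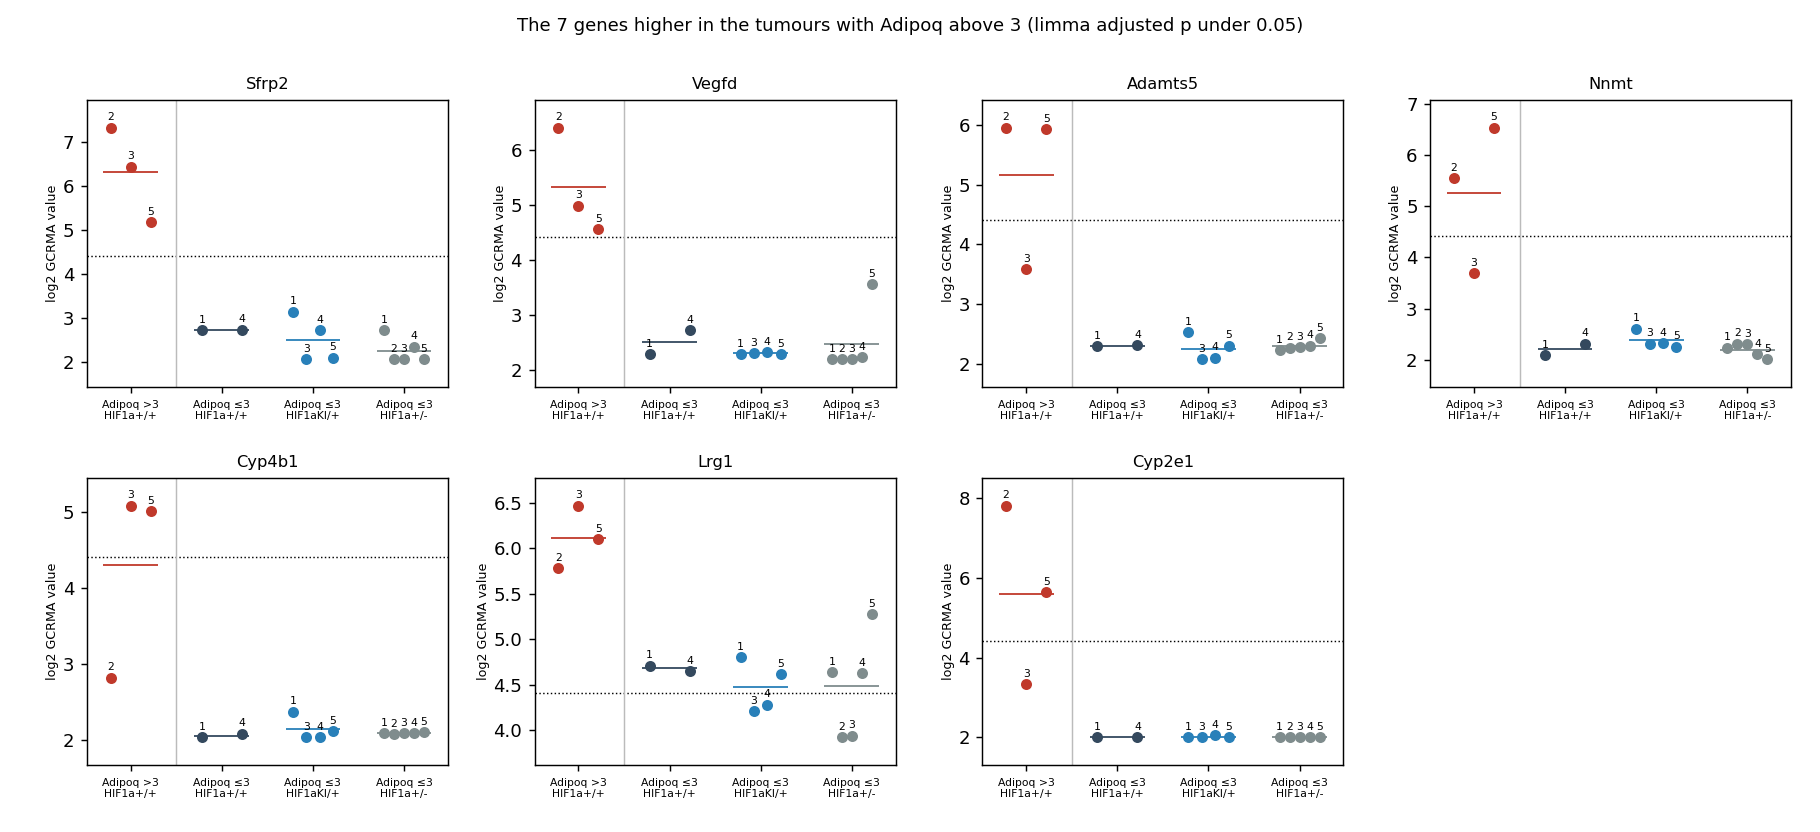
Deposited log2 GCRMA values (y axis) of the 7 genes that passed the limma test, in each of the 14 tumours by side and genotype (x axis). Points are tumours with their replicate number, horizontal bars are means, and the dotted line is the low-mode boundary at 4.41. In every panel HIF1a+/+ tumours 2, 3 and 5 lie above the other 11, and in all panels but that of Lrg1 the 11 lie below the dotted line.

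Promoter sequence was looked up for Adipoq, Retn, Car3 and the 7 called genes in the RefSeq windows of GRCm38.p6, from 250 bases before to 50 after each gene start, and 7 of the 10 genes had a window. Sequences searched were the TATA box (TATAAA, gene strand), the C/EBP core (TTNNGNAA, both strands) and the direct repeat bound by PPARγ (2 copies of AGGTCA with 1 base between them, both strands). The 250 bases before the start are shown for Adipoq, which made the split, and for the called genes with a match there, Sfrp2, Vegfd and Cyp2e1. Capitals mark the matches.
Adipoq: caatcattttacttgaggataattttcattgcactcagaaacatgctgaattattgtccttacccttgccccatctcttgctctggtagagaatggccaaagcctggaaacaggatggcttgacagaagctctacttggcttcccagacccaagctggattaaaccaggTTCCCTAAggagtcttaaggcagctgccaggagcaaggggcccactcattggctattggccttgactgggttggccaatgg
Sfrp2: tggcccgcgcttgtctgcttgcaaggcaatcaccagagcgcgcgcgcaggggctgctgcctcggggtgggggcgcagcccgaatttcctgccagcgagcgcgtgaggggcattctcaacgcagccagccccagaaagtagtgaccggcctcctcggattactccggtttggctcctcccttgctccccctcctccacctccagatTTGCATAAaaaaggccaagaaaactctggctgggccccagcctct
Vegfd: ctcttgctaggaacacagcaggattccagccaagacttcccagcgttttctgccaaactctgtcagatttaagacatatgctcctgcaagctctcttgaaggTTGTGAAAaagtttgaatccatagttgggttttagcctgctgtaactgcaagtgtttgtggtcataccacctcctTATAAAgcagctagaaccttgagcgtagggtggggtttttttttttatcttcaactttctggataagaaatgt
Cyp2e1: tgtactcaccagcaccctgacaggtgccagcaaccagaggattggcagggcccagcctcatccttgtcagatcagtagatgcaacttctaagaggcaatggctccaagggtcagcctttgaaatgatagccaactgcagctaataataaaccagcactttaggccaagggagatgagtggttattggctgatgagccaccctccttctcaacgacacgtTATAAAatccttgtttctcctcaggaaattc
These lie at chr16:23146286-23146535 for Adipoq, chr3:83766071-83766320 for Sfrp2, chrX:164373272-164373521 for Vegfd and chr7:140763569-140763818 for Cyp2e1, all on the plus strand. The C/EBP core started 81 bases before the start of Adipoq, 45 before that of Sfrp2 and 148 before that of Vegfd, and 40.7% of all 32851 windows held 1 or more. A TATA box stood 31 bases before the start of Cyp2e1 and 73 before that of Vegfd, and 8.32% of windows held 1. Lrg1 had a TATA match 11 bases past its start, while Retn and Cyp4b1 had no match of the 3. None of the 7 windows held the PPARγ repeat, which 13 windows held in all (0.0396%). These are matches of letters and no measure of binding.

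Next by p among genes with a difference of at least 1 and a higher mean over the boundary, and not past the threshold, were Gprc5b, Cd55 and Clec10a. Gprc5b, an orphan receptor, was at 6.80, 5.49 and 7.23, against 2.0, 3.33 and 4.82 as the lowest, median and highest of the 11 (difference 3.37, SE 0.56, limma adjusted p = 0.063). Cd55, which shields cells from complement, was at 6.92, 5.59 and 6.46, against 3.07, 4.21 and 5.11 (difference 2.14, SE 0.38, limma adjusted p = 0.0819). Clec10a, a lectin of macrophages and dendritic cells, was at 6.38, 3.83 and 6.08, against 2.06, 2.15 and 3.95 (difference 2.87, SE 0.56, limma adjusted p = 0.165). For Gprc5b and Cd55 the sides did not overlap.

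No gene passed in the lower direction. Mvb12a, a subunit of the ESCRT-I sorting complex, came nearest, with 9.53, 10.14 and 9.68 in the tumours above 3, against 10.30, 10.82 and 11.48 as the lowest, median and highest of the 11 (difference -1.11, SE 0.22, limma adjusted p = 0.185). Gramd3 was at 9.30, 7.44 and 9.70, against 10.13, 11.06 and 12.26 (difference -2.35, SE 0.53, limma adjusted p = 0.365). Tec, a tyrosine kinase of blood cells, was at 6.08, 6.05 and 4.32, against 6.42, 7.37 and 8.11 (difference -1.74, SE 0.41, limma adjusted p = 0.405). These 3 genes did not overlap between the sides. Tceanc2, Ccl25, Prpf40b, Tbc1d10a, Pygb, Syt13 and Eppk1 had differences from -4.12 for Eppk1 to -1.08 for Pygb, and of these Prpf40b alone did not overlap.

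Counted without a test, 44 genes (0.429%) were higher in all 3 tumours than in all 11, and 17 (0.166%) lower. With a difference of at least 1 these were 29 (0.283%) and 7 (0.0683%). Within HIF1a+/+, 26 of the 29 and 4 of the 7 differed by at least 1. HIF1a+/+ tumours 1 and 4 are among the 11, so the selection fixed that direction and nothing is read from these counts. Some of the 29 were apart from the 11 in 1 tumour only at background level, such as Marco at 2.05 in HIF1a+/+ tumour 5 against at most 2.04. From the 29, 4 genes picked after their values were seen are given here as single examples. Saa3, an acute-phase serum amyloid, was at 13.85, 12.58 and 13.0, against 5.32, 8.67 and 11.74 as the lowest, median and highest of the 11. Cxcl13, a chemokine for B cells, was at 13.84, 13.79 and 13.69, against 3.89, 9.31 and 12.68. Cxcl12, a stromal chemokine, was at 9.93, 10.87 and 10.35, against 7.66, 8.59 and 9.53. Elavl4, an RNA-binding protein of neurons, was at 10.58, 10.39 and 10.26, against 2.05, 5.45 and 9.94. For Saa3 the highest of the 11 was HIF1aKI/+ tumour 4.

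Lists of other cell types were read by their counts and medians, beside 0.00 for the median of all genes. None of the 30 lists outside the adipocyte ones held a gene past the test. With 0.0683% of all genes called higher and 0.0% lower, a count of 0 is near the background and says nothing particular about any of these lists. In the macrophage list, 18 of 20 genes had a higher mean and the median difference was 0.69, or 0.49 within HIF1a+/+. The list mean was 9.93, 8.51 and 9.12 in HIF1a+/+ tumours 2, 3 and 5, against 7.34 to 8.54, and tumour 3 overlapped the 11. Cd14, a lipopolysaccharide co-receptor, was at 6.26, 6.31 and 7.91, against 2.41, 4.48 and 5.92 as the lowest, median and highest (difference 2.4, SE 0.74, limma adjusted p = 0.619). Marco, a scavenger receptor, was at 9.68 and 7.32 in tumours 2 and 3 but 2.05 in tumour 5, against 2.03 to 2.04. Csf1r, the receptor that macrophages depend on, averaged 13.44 ± 0.39 against 13.12 ± 0.37.

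Fibroblast and matrix genes had a higher mean in 20 of 22, with a median of 0.35 that became -0.01 within HIF1a+/+. The list mean was 10.04, 8.32 and 9.60, against 8.0 to 9.50, and tumour 1 of HIF1a+/+ reached 9.50. Pdgfra, the receptor that marks mesenchymal progenitors, was at 8.99, 8.76 and 8.19, against 3.96, 6.01 and 7.56 (difference 2.36, SE 0.63, limma adjusted p = 0.486). Ogn, a matrix proteoglycan, was at 9.48, 7.67 and 8.23, against 2.54, 5.25 and 7.32 (difference 2.91, SE 0.79, limma adjusted p = 0.501). Neither overlapped. Col1a1, the main collagen of fibroblasts, averaged 12.69 ± 0.62 against 12.39 ± 0.67. Among genes of the progenitors in fat stroma, 8 of 10 had a higher mean, with a median of 0.45 and of 0.14 within HIF1a+/+. In 5 of these 10 the mean over all tumours was below the low-mode boundary. Cd34 averaged 7.89 ± 1.22 against 6.55 ± 0.65.

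All 4 measured mesothelial genes were highest in HIF1a+/+ tumour 2. Wt1, a transcription factor of the mesothelium, was at 7.58, 5.39 and 2.19, against 2.11, 2.13 and 3.61 as the lowest, median and highest. Upk3b, a surface protein, was at 9.47, 2.62 and 2.01, and among the 11 HIF1aKI/+ tumour 4 reached 6.28 where the median was 2.0. The mean of the 4 measured genes was 6.28, 3.05 and 2.10, against 3.57 in HIF1aKI/+ tumour 4 and 2.07 to 2.21 in the other 10. The median difference of 1.59, or 1.85 within HIF1a+/+, became -0.06 without HIF1a+/+ tumour 2. Of the 6 complement genes measured, 5 had a higher mean, with a median of 1.29, or 1.75 within HIF1a+/+, that became 0.25 without the same tumour. In 3 of these 6 the mean over all tumours was below the low-mode boundary. C1s1, a subunit of the C1 protease, was at 8.08, 6.17 and 6.45, and HIF1aKI/+ tumour 4 was the highest of the 11 at 7.42.

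Thymic epithelial genes had a lower mean in 11 of 13, with a median difference of -1.43 and of -0.28 within HIF1a+/+. The list mean was 5.40, 3.69 and 4.52, against 3.94 to 6.92, where HIF1a+/+ tumour 4 was the lowest of the 11. Ccl25, the chemokine by which thymic epithelium draws progenitors in, was at 6.06, 6.96 and 6.17, against 6.64, 8.09 and 8.76 (difference -1.56, SE 0.39, limma adjusted p = 0.422). Krt18, a keratin, was at 8.98 in tumour 2 but 3.21 and 3.45 in tumours 3 and 5, against 3.56, 10.10 and 10.78. Aire, which marks medullary epithelium, averaged 2.37 ± 0.56 against 4.27 ± 2.06. The median was -0.87 without HIF1a+/+ tumour 3.

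**Figure D3:**
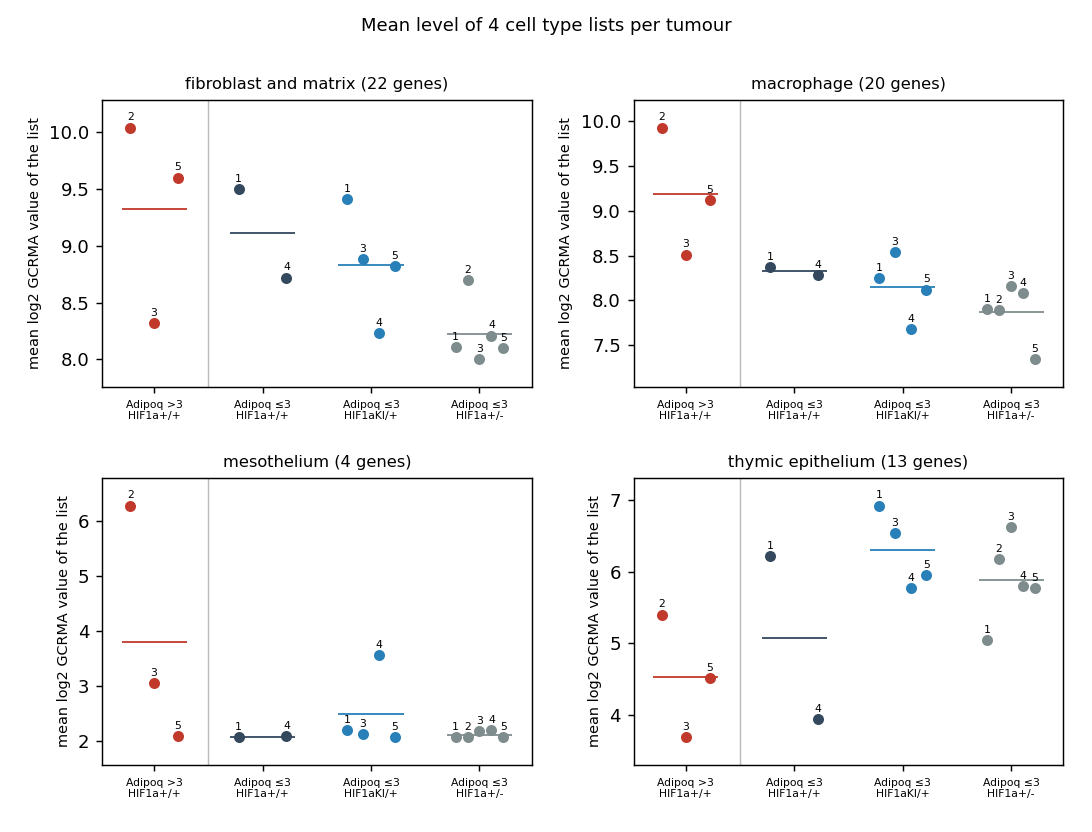
Mean log2 GCRMA value of the measured genes of 4 cell type lists (y axis) in each of the 14 tumours by side and genotype (x axis). Points are tumours with their replicate number and horizontal bars are means. The mesothelial mean is high in HIF1a+/+ tumour 2 at 6.28, and the macrophage means of tumours 2 and 5, at 9.93 and 9.12, lie above those of the 11 tumours.

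Of 20 T lineage genes, the markers of the lymphoma cells, 13 had a higher mean, with a median of 0.06 and of 0.32 within HIF1a+/+. There, 8 of the 20 were higher in all 3 tumours than in tumours 1 and 4 and 1 was lower in all 3, beside 7.27% and 6.68% of all genes. The T lineage list mean was 11.15 in both HIF1a+/+ tumours 1 and 4, the lowest of the series. It was 11.48, 11.50 and 11.81 in tumours 2, 3 and 5, inside the 11.44 to 11.88 of the HIF1aKI/+ and HIF1a+/- tumours. Ptcra, the pre-T cell receptor alpha chain, averaged 12.90 ± 0.48 against 11.53 ± 1.49 (limma adjusted p = 0.999), and Cd3e 13.10 ± 0.33 against 12.83 ± 0.36. Cell cycle genes had a median of 0.03 over 27 and of -0.18 within HIF1a+/+, and glycolysis genes 0.01 over 15 and -0.13 within HIF1a+/+, so both changed sign. The median was -0.04 over 17 ribosomal protein genes (-0.02 within HIF1a+/+) and 0.02 over 7 brown fat genes (0.00 within HIF1a+/+). In the Notch list 15 of 16 genes had a higher mean, with a median of 0.41 and of 0.24 within HIF1a+/+. The Notch list mean was 9.99, 10.74 and 9.76 in HIF1a+/+ tumours 2, 3 and 5, inside the 7.95 to 10.44 of the 11 but for tumour 3. HIF1a+/+ tumours 1 and 4, at 10.44 and 10.02, exceeded tumours 2 and 5. The lowest were HIF1a+/- tumours 2 and 5, at 7.95 and 8.13.

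Interferon-induced genes depended on which tumours were compared. Of 18, 15 had a lower mean, with a median of -0.54, but the median was 0.72 within HIF1a+/+ and -0.02 without HIF1a+/+ tumour 3. The list mean was 8.06, 6.34 and 7.65, against 6.06 to 9.02, and the lowest of the 11 was HIF1a+/+ tumour 4. Bst2, or tetherin, averaged 7.74 ± 1.92 against 9.35 ± 0.53 (limma adjusted p = 0.802). In the list of dendritic cell and MHC class II genes 9 of 10 had a lower mean, with a median of -0.32 and of 0.04 within HIF1a+/+.

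Hif1a, whose genotype the study varied, was at 13.04, 12.45 and 12.85 in the tumours above 3, against 11.75, 12.44 and 12.82 as the lowest, median and highest of the 11 (difference 0.43, SE 0.20, limma adjusted p = 0.89). The 20 measured hypoxia-induced genes had a median of 0.10 and of 0.08 within HIF1a+/+. Hmox1, heme oxygenase, was the member of smallest p, at 12.51, 10.87 and 12.23, against 8.80, 10.20 and 11.40 (difference 1.77, SE 0.57, limma adjusted p = 0.639).

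**Figure D4:**
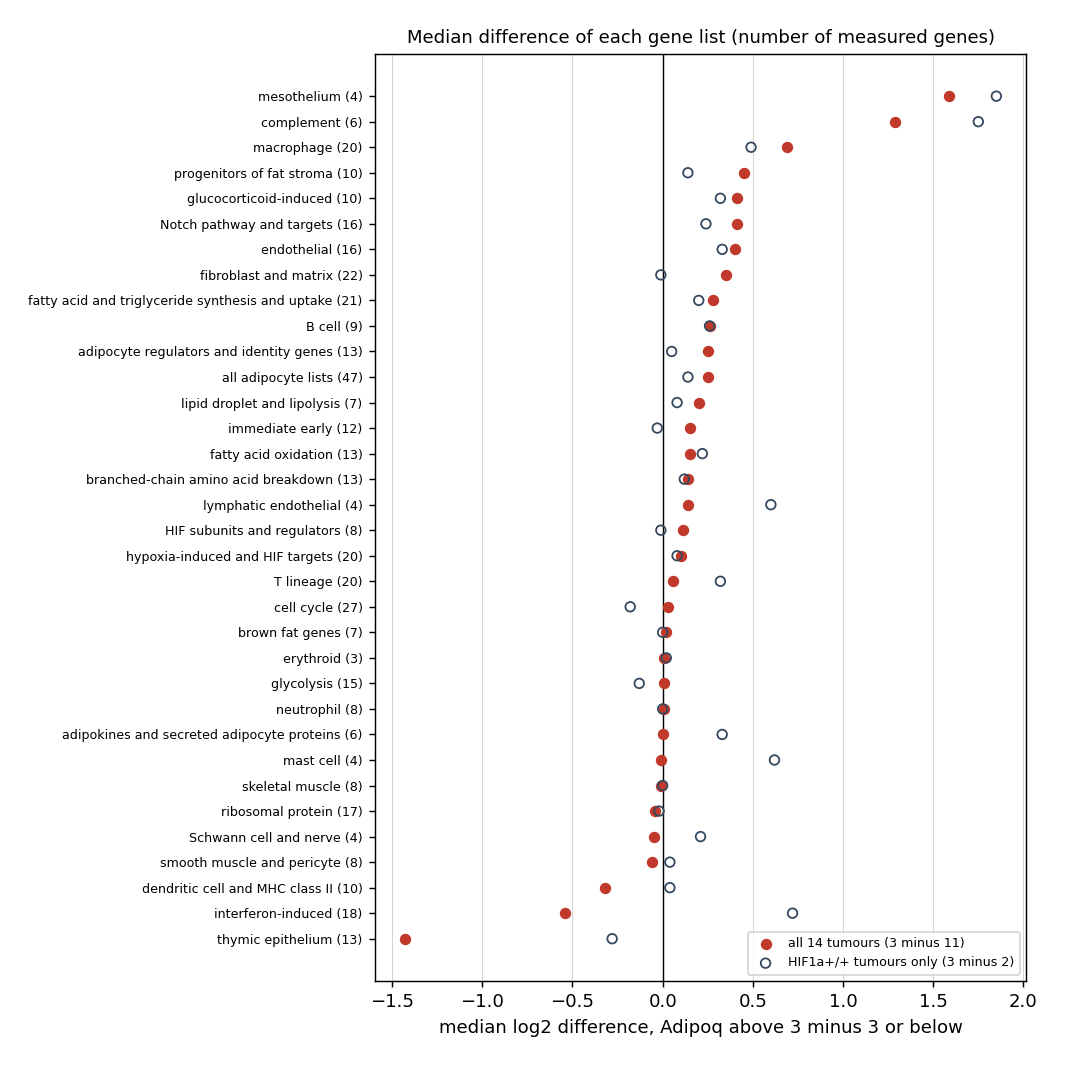
Median log2 difference of each gene list, Adipoq above 3 minus 3 or below (x axis), by list with its number of measured genes (y axis). Filled points compare the 3 tumours with all 11, and open points compare them with HIF1a+/+ tumours 1 and 4 alone. The 2 kinds of point lie on opposite sides of 0 for interferon-induced genes, at -0.54 and 0.72.

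Sex-linked genes were unevenly divided between the sides. Xist, which silences an X chromosome in female cells, was over the low-mode boundary in 2 of the 3 tumours above 3, HIF1a+/+ tumours 3 and 5, and in 2 of the 11. Eif2s3y, a gene of the Y chromosome, was over it in 1 of the 3 and in 9 of the 11. With the mean of the Y-linked genes as a covariate, 2 genes passed the limma threshold in the higher direction, Sfrp2 with a difference of 3.80 and Vegfd with 3.10.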

How the data were processed

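Thymic lymphoma RNA from 14 mice was measured on Affymetrix arrays. The authors deposited log2 values per probe set, made with GCRMA and Partek per the submitters' processing notes, which give no versions. GCRMA corrects probes for background by sequence, so values near 2 carry no order. The genome build and raw intensities were not used here. The table held 18264 probe sets, 16602 naming 1 gene, 603 several and 1059 none, by a platform annotation matched to RefSeq. The probe set of highest mean stood for a gene, leaving 10254 genes, and 3999 had several probe sets. Array medians lay between 7.91 and 8.03, and arrays correlated at 0.941 to 0.974. The number of arrays limits the precision.

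Tumours were divided at an Adipoq value of 3. Adipoq was left out, and limma 3.58.1 in R 4.3.3 (lmFit, eBayes, two-sided, Benjamini-Hochberg over 10253 genes, threshold 0.05) compared the sides without a term for genotype. No filter on level was applied. The boundary of 4.41 is the minimum in the density of all deposited values, and 28.5% of genes had a mean below it. It was chosen after another definition, the density of gene means, had given 4.97 and 30.5%, and after its results were seen. Named genes were Adipoq, Car3 and Retn, members of the adipocyte lists, up to 15 called genes per direction filled to 10 by p, the 4 members of smallest p in other lists, and Hif1a and Epas1. Epas1 was near 2 in all tumours but 1, at 2.82. Csf1r, Col1a1, Aire, Saa3, Cxcl13, Cxcl12 and Elavl4 were added after their values were seen. Members and lists were chosen with earlier results of these data known. The fit was tested on simulated data.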

Additional observations from a re-analysis of the deposited data

Results flagged for a closer look

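Within each genotype, the levels of Adipoq, Retn, Car3, the adipocyte mean and 4 list means were searched for a tumour set apart from the rest of its genotype by Dixon's criterion, and the 4 lists were picked after their means were seen. Of 24 such checks 5 singled out a tumour. The criterion's rate of about 1 group in 20 does not apply here, so the count is not compared with chance. Some of the groups lay at background level, Adipoq made the split, and the 4 lists were not chosen beforehand. The criterion named 2 values at background level, which carry no order, so nothing is read from them: Adipoq, which also made the split, at 2.47 in HIF1aKI/+ tumour 4 with 2.02 to 2.03 in the others of that genotype, and Retn at 2.19 in HIF1a+/- tumour 3 with 2.04 in the others. Retn was at 4.43 in HIF1aKI/+ tumour 4, hardly over the low-mode boundary of 4.41, with the others between 2.03 and 2.04. The mesothelial list mean was 3.57 in HIF1aKI/+ tumour 4, against 2.08 to 2.21 in the others of that genotype. It was 6.28 in HIF1a+/+ tumour 2, against 2.07 to 3.05 in the others.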

How the results depend on the processing

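The count of 7 higher genes was 0 with genotype as a term and 0 in HIF1a+/+ tumours alone. It was 0 among genes over the boundary of 4.41 and 0 over that of 4.97. With the Adipoq level as a continuous term it was 13. These 13 include Retn and Acaca of the adipocyte lists. Both speak to the same property as the split, so nothing is read from their passing. The count was 4 after quantile normalization, 2 with the Y-linked covariate, 4 with the fibroblast and matrix covariate and 0 at a threshold of 2.4. It was 4 to 28 when each tumour was left out, with 14, 28 and 11 without HIF1a+/+ tumours 2, 3 and 5. Probe sets tested singly gave 5 probe sets, of Sfrp2, Vegfd (2 of them), Adamts5 and Nnmt, while Cyp4b1, Lrg1 and Cyp2e1 did not pass. Apart from the replicate block, given separately, the count lay between 7 and 10 under the other alternatives. Of these, thresholds of 2.5 and 3.5 gave the same split, as did the 3 tumours of highest adipocyte mean, a number taken from the Adipoq split. The count of 0 lower genes was 2 in HIF1a+/+ tumours alone (Ctr9 and Galc), 1 with the continuous term (Gramd3) and 0 to 1 when each tumour was left out, 1 each without HIF1a+/+ tumours 2 and 3. The 44 genes above without overlap were 745 in HIF1a+/+ tumours alone, 22 at a threshold of 2.4, 25 and 21 over the boundaries of 4.41 and 4.97, and 46 to 288 when each tumour was left out. The 17 below without overlap were 685, 5 at 2.4 and 17 to 122 when each tumour was left out. With fewer tumours on a side, more genes lie apart by construction. The cause of the other changes was not tested. In no alternative did a named gene past the test change direction. In all 7 of these genes the 3 tumours lay above all 11. Leaving out a tumour, a genotype term or HIF1a+/+ tumours alone thus could not reverse the direction, and nothing is read from its constancy there.

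With the replicate number as a block the count was 1 (Sfrp2), and 1 (Thrsp) with genotype and the replicate block together. Thrsp belongs to the adipocyte lists, so nothing is read from its passing. Same-numbered tumours did not deviate together: over 13 pairs the mean correlation was -0.006 (-0.109 to 0.141), against 0.002 for other pairs, and 1 of 14 tumours correlated best with its own number. The threshold of 2.4, the boundary of 4.97 and the joint genotype and block fit were chosen after seeing the data. Signal limits most of these results: values under the boundary are not clear of background, and 2 of the 3 Adipoq values over 3 lie there. With 3 tumours of 1 genotype on the upper side, side and genotype cannot be told apart outside HIF1a+/+.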

Other observations

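Of 16 endothelial genes, 12 had a higher and 4 a lower mean in the tumours with Adipoq above 3, with a median difference of 0.40 and of 0.33 within HIF1a+/+. However, 9 of the 16 had a mean over all tumours below the low-mode boundary, so the count of directions rests in part on values not clear of background. Plvap, a diaphragm protein of fenestrated vessels, was at 9.01, 9.36 and 9.33 in HIF1a+/+ tumours 2, 3 and 5, against 6.55 to 9.11 in the 11, and Tek, the angiopoietin receptor, was at 6.53, 6.55 and 7.70, against 3.41 to 6.80. Both overlapped.

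Some single genes, picked after their values were seen, were high in 1 tumour, which does not describe their lists. HIF1a+/+ tumour 5 was at 11.05 for S100a8 and 10.68 for S100a9, calcium-binding proteins of neutrophils, against highest values of 8.85 and 8.43 in the 11 tumours with Adipoq at 3 or below. It was also at 7.41 for Cldn5, a tight junction protein of endothelium, which was 2.18 and 2.0 in tumours 2 and 3 and at most 2.78 in the 11. HIF1a+/+ tumour 2 was at 7.60 for Cma1, a mast cell chymase, which was between 2.01 and 2.05 in the 11, but Cpa3, the mast cell carboxypeptidase, was at 7.82 in that tumour, against 10.75 and 10.97 in HIF1a+/- tumours 1 and 2. None of these genes passed the limma test over the 14 tumours. Cox7a1, a cytochrome oxidase subunit of muscle and brown fat, was at 4.31, 6.90 and 4.58 in HIF1a+/+ tumours 2, 3 and 5, and at 6.78 in HIF1aKI/+ tumour 4, where the median of the 11 was 4.45. The brown fat list as a whole had a median difference of 0.02.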
